A study of Mus musculus with 1931 samples.

Results

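Induced extraembryonic endoderm (iXEN) cells grown as a 2D monoculture were compared with embryonic stem cells (ESCs) kept in 2i/LIF. The members were all wells of these cultures with values above 0 for at least 2500 genes. These were 283 cells, 77.5% of 182 iXEN wells and 44.8% of 317 ESC wells, out of 1406 such cells among the 1931 wells of the series. Single mouse cells had been sorted into the wells and processed by SMART-seq2, a full-length single-cell protocol without molecular identifiers. The remaining wells came from induced trophoblast stem cells (iTSCs) in 2D and from RtL-embryoids, the 3D co-culture aggregates of the study, which hold VE-like (visceral endoderm), Epi-like (epiblast) and ExE-like (extraembryonic ectoderm) cells.

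The iXEN cells came from an mCherry-transduced iGATA6 ESC line that carried a lentiviral, doxycycline (DOX)-inducible Gata6 transgene under puromycin selection. They received 2 µg/ml DOX for 3 days in XEN medium, were kept for another 24 h without DOX and were sorted for mCherry. Both the XEN medium and the 2i/LIF medium of the ESCs contained serum. The ESCs were Kermit ESCs, which carry GFP under the Oct3/4 promoter, were sorted for GFP, and received neither DOX nor XEN medium. The ESC group was therefore not the uninduced parent line, and the effects of Gata6, of DOX, of the medium, of the line and of the sequencing plate cannot be told apart. The iTSC culture and the RtL-embryoids also received 2 µg/ml DOX for 3 days and were then kept for 24 h without DOX. Each side of the comparison was 1 culture on 1 plate. No test across cultures was possible, and all spreads below are spreads over cells of 1 culture.

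Gata6 is a zinc finger transcription factor that, with Gata4, Sox17, Sox7 and Foxa2, specifies the primitive endoderm, the inner layer of the blastocyst that covers the pluripotent epiblast. Primitive endoderm gives rise to parietal endoderm, which lays down the laminin and collagen IV of Reichert's membrane, and to visceral endoderm, an absorptive epithelium that takes up maternal protein through the endocytic receptors cubilin and megalin and secretes carrier proteins. Naive ESCs hold the opposite state through Pou5f1 (Oct4), Sox2, Nanog and Esrrb, and forced Gata6 is known to turn ESCs into XEN-like cells.

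Levels are given in TP10k, the TPM of a gene rescaled so that the genes of the table sum to 10000 in each cell. TPM are corrected for transcript length, so levels can also be compared between genes. A share of cells counts every value above 0, however small, and its 95% exact (Clopper-Pearson) interval covers counting error only. Differences are log2 ratios of the culture means after 0.1 TP10k was added to each, which understates the change of low genes. The number of genes above 0 ran from 3358 to 10742 per ESC (median 9094) and from 3578 to 10146 per iXEN cell (median 8699). The number of reads behind a value is not known. The iXEN cell with the fewest genes stood apart from the other 140 and is named below where a value rested on it.

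Gata6 itself was found in 1.41% of ESCs (interval 0.171% to 5%) and in 97.9% of iXEN cells (93.9% to 99.6%). Its level ran from 0 to 0.0584 TP10k over the ESCs with a median of 0, and from 0 to 2.22 over the iXEN cells with a median of 0.508. The values do not separate transcripts of the transgene from those of the endogenous gene, and the cells had been without DOX for 24 h. The labelled cell types were checked with the markers of the study's cell types. All 7 VE-like markers (Amn, Dkk1, Gata4, Sox17, Cubn, Sox7, Foxa2) had a higher mean in iXEN cells than in ESCs, and all 6 Epi-like markers (Pou5f1, Nanog, Gdf3, Tdgf1, Sox2, Utf1) had a lower one. Pou5f1 is no independent check, since the ESCs had been sorted for GFP under its promoter.

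A gene was compared when at least 10% of ESCs or of iXEN cells held it. Of these 13681 genes 2.31% were 4-fold or more higher in iXEN cells and 1.09% were 4-fold or more lower. The median log2 difference over all genes compared was -0.00494, and 85.8% of them lay within 1 of 0 on the log2 scale. A gene was called switched on when it was higher, was found in at most 10% of ESCs and in at least 50% of iXEN cells. This held for 60 genes (0.439%). The mirrored rule for genes switched off held for 46 genes (0.336%). Most of the ESC transcriptome stayed detectable: of 8940 genes found in at least 50% of ESCs, 7751 (86.7%) were found in at least 50% of iXEN cells and 1.77% in at most 10%.

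**Figure D1:**
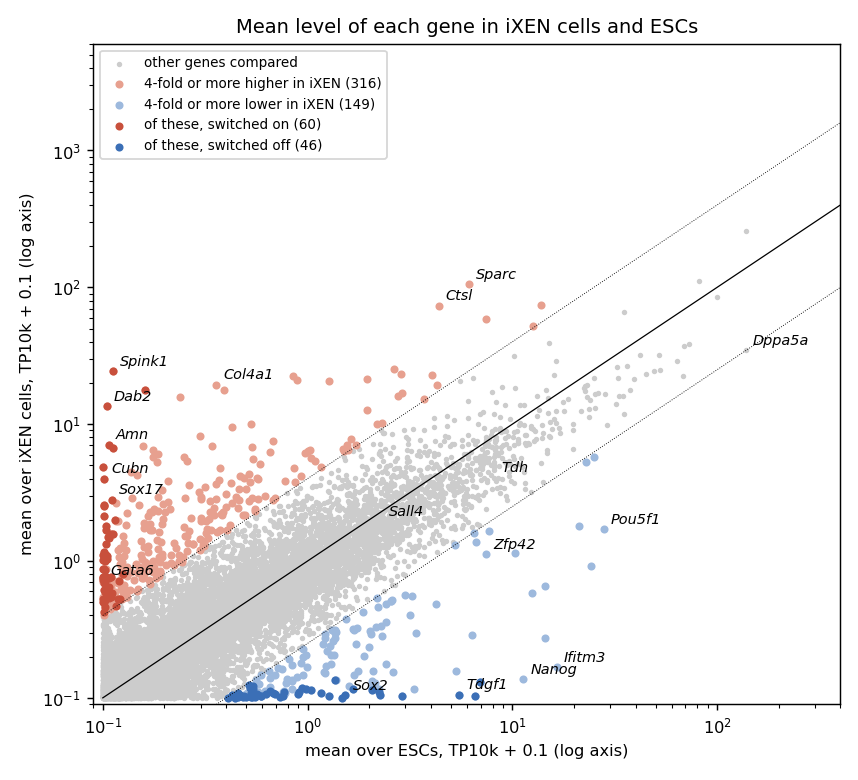
Mean level of each gene over ESCs (horizontal) and iXEN cells (vertical), both as TP10k + 0.1 on log axes, with lines at equality and at 4-fold. The 60 switched-on genes lie along the left edge up to Spink1 at 24.2 TP10k, the 46 switched-off genes lie along the lower edge, and Sall4 and Tdh stay between the 4-fold lines.

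Of the 9 endoderm transcription factors listed, 6 were 4-fold or more higher in iXEN cells, none was lower, and the median log2 difference was 2.93. Sox17, a SOX factor of the primitive endoderm, ran from 0 to 0.753 TP10k over the ESCs with a median of 0, and from 0 to 16 over the iXEN cells with a median of 1.9. Its log2 difference was 4.67, and 93.6% of iXEN cells held it. Gata4, the partner of Gata6, ran from 0 to 0.263 TP10k over the ESCs with a median of 0, and from 0 to 7.15 over the iXEN cells with a median of 2.48, a log2 difference of 4.52. No ESC reached the iXEN median of either gene, and the ranges overlap only at their low ends. Sox7, another SOX factor of the same layer, had means of 0.000313 TP10k in ESCs and 0.92 in iXEN cells (log2 difference 3.35). The Gata6 means were 0.000595 TP10k in ESCs and 0.621 in iXEN cells, a log2 difference of 2.84.

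The pioneer factor Foxa2 was found in 0 ESCs and in 96.5% of iXEN cells at a mean of 0.661 TP10k. By a rule of 3 cells over the number of ESCs, which is not the exact interval used elsewhere, 0 ESCs allows a share of up to 2.11%. The nuclear receptor Hnf4a and the forkhead factor Foxq1 were just under the 4-fold rule, with log2 differences of 1.75 and 1.77, although 78.7% and 86.5% of iXEN cells held them. Hhex, a homeobox gene of the anterior visceral endoderm, stood at 0.14 TP10k in ESCs and 0.12 in iXEN cells and was the only one of the 9 that was not higher. In the iTSC culture, which had also received DOX but for other transgenes, Sox17 and Foxa2 had means of 0.000188 and 0.00155 TP10k and Gata4 of 0.0107.

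Among 9 receptors and adaptors of the endoderm, 4 were higher and none was lower by the 4-fold rule. Dab2, the endocytic adaptor that binds the tails of cubilin and megalin, ran from 0 to 0.126 TP10k over the ESCs with a median of 0, and from 1.37 to 52 over the iXEN cells with a median of 12.2. Every iXEN cell was above every ESC, and the log2 difference was 7.01. Pdgfra, the PDGF receptor that marks primitive endoderm, had means of 0.00121 TP10k in ESCs and 0.512 in iXEN cells (2.60). The FGF receptors differed in direction. Fgfr2 had means of 0.01 TP10k in ESCs and 0.454 in iXEN cells (2.33) and Fgfr3 of 0.00195 TP10k in ESCs and 0.489 in iXEN cells (2.53), whereas Fgfr1 had means of 0.365 TP10k in ESCs and 0.0566 in iXEN cells (-1.57), and Fgfr4 reached 0.104 TP10k in iXEN cells. The LIF receptor Lifr and its co-receptor Il6st stayed within 1 of 0 on the log2 scale (0.77 and -0.02), and Kit, the receptor for stem cell factor, had a log2 difference of -1.45.

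To place the switched genes beside their sequence, the 250 bases before the start of transcription were read from RefSeq promoters of the GRCm38.p6 build and searched for the GATA motif on either strand, spelled AGATAA or with AGATAG as another spelling, and likewise TGATAA with the variant TGATAG. A promoter on record was matched for 10626 of the genes compared, and 17.6% of these held a match. Among the switched-on genes 10 of 49 held one (20.4%, interval 10.2% to 34.3%), and among the switched-off genes 4 of 33 (12.1%, 3.4% to 28.2%). Both intervals include the share over all genes. The next lines show the windows of 2 switched-on genes, Dab2 (chr15:6299539-6299788, plus strand) and Foxa2 (chr2:148046970-148047219, minus strand), and of 2 pluripotency genes that were lower, Pou5f1 (chr17:35505782-35506031, plus strand) and Tdgf1 (chr9:110946159-110946408, minus strand), each 5′ to 3′ with matches in capitals.
Dab2: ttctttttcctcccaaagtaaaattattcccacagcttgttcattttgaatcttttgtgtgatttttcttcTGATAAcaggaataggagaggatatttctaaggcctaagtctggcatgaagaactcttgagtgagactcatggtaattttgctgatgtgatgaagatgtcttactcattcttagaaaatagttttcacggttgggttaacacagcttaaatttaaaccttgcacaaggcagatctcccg
Foxa2: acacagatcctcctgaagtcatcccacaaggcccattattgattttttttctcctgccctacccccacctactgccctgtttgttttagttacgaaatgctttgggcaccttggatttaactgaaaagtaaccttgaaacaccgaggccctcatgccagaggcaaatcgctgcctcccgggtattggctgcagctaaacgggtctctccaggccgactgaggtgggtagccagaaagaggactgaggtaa
Pou5f1: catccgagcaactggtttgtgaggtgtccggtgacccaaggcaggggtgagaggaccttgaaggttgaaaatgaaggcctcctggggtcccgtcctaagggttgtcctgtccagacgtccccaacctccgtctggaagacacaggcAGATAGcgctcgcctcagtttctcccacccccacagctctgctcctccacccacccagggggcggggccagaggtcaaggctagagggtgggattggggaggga
Tdgf1: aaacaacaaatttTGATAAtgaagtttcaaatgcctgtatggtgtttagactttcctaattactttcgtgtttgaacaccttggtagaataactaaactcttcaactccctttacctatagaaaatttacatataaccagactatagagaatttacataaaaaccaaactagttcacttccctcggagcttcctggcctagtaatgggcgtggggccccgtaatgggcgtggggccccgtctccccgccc
Dab2, Pou5f1 and Tdgf1 held 1 match each and Foxa2 none, so in these windows the motif did not follow the direction of the difference. A match of these letters is a description and not a binding site, and elements outside the window were not searched.

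Genes of the basement membrane and the parietal endoderm were among the most abundant that differed. Of 18 listed genes (17 compared) 11 were higher by the 4-fold rule and none was lower, and their summed level per cell had a median of 14.7 TP10k in ESCs and 163.2 in iXEN cells. Sparc, a collagen-binding glycoprotein abundant in parietal endoderm, ran from 0 to 11.4 TP10k over the ESCs with a median of 5.94, and from 19.7 to 266.3 over the iXEN cells with a median of 97.9, without overlap. Col4a1, a chain of collagen IV, reached at most 1.18 TP10k in any ESC (median 0.174) and at least 1.19 in every iXEN cell (median 18). Its partner chain Col4a2 had means of 0.0378 TP10k in ESCs and 4.36 in iXEN cells (5.02).

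The laminin chains of the same membrane, Lama1, Lamb1 and Lamc1, had log2 differences of 4.08, 4.83 and 2.10, and the perlecan gene Hspg2 of 1.87. Lamc1 was already well detected in ESCs at 1.4 TP10k. Nidogens, which link laminin to collagen IV, went different ways, with Nid2 at 2.34 TP10k in ESCs and 4.84 in iXEN cells and Nid1 at 0.957 TP10k in ESCs and 0.305 in iXEN cells. Genes for folding and modifying collagen were higher too. Serpinh1, the collagen chaperone HSP47, had means of 0.0749 TP10k in ESCs and 5.62 in iXEN cells (5.03), and the prolyl hydroxylase subunits P4ha1 and P4ha2 had log2 differences of 3.29 and 2.95. Pth1r, a receptor known from parietal endoderm, had means of 0.00118 TP10k in ESCs and 2.46 in iXEN cells (4.66) and Plat, tissue plasminogen activator, of 0.00366 TP10k in ESCs and 0.775 in iXEN cells (3.08). Thbd, thrombomodulin and a classic parietal endoderm marker, was found in 2 iXEN cells and in 2 ESCs, and Stra6, a retinol transporter, stayed at 0.0721 TP10k.

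Of 17 visceral endoderm genes (16 compared) 12 were higher and none was lower, with a median log2 difference of 3.26. When cells under 4000 genes were left out 11 were higher, since Apob no longer passed. The uptake receptors were found in nearly every iXEN cell. Cubn, cubilin, ran from 0 to 0.0706 TP10k over the ESCs with a median of 0, and from 0.21 to 14.2 over the iXEN cells with a median of 3.5, without overlap. Amn, the protein that carries cubilin to the membrane, had means of 0.0067 TP10k in ESCs and 6.97 in iXEN cells (6.05), and Lrp2, megalin, of 0.0188 TP10k in ESCs and 1.88 in iXEN cells (4.06). Spink1, a secreted trypsin inhibitor, had the highest log2 difference of all genes compared (7.76): it ran from 0 to 0.473 TP10k over the ESCs with a median of 0, and from 0 to 92.6 over the iXEN cells with a median of 18.6. Cited1, a transcriptional co-regulator, had means of 0.15 TP10k in ESCs and 5.62 in iXEN cells and Ihh, a hedgehog ligand of the visceral endoderm, of 0.000218 TP10k in ESCs and 0.402 in iXEN cells. Apoe, an apolipoprotein, was high in both cultures, at 13.7 TP10k in ESCs and 73.9 in iXEN cells.

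Secreted carrier proteins of the mature visceral endoderm were unevenly spread over the iXEN cells. Ttr, transthyretin, was found in 51.8% of iXEN cells (interval 43.2% to 60.3%) and ran from 0 to 0.102 TP10k over the ESCs with a median of 0, and from 0 to 30.2 over the iXEN cells with a median of 0.0676. The 14 iXEN cells with the highest Ttr held 70.2% of its summed level, against 18.3% for Amn. Rbp4, retinol binding protein, was found in 53.9% of iXEN cells at up to 46.8 TP10k, Apom in 80.9% at up to 26, Apob in 28.4% at up to 12.9 and Apoa1 in 12.1% at up to 19.8. Pearson correlations of ln(TP10k + 1) were taken over all kept iXEN cells of the 1 culture. For Ttr they were 0.762 with Rbp4, 0.67 with Apom, 0.687 with Apob and 0.474 with Apoa1. With the number of genes in the cell the correlation of Ttr was -0.0856. Over the 140 cells with at least 4000 genes, Ttr had 0.743 with Rbp4, 0.644 with Apom, 0.659 with Apob and 0.413 with Apoa1. With Pou5f1 it had -0.416 over these 140 cells. The iXEN cell with the fewest genes had the highest Apoa1 value. Over the cells with at least 4000 genes, which leaves out this cell and 1 ESC, the Apoa1 mean went from 0.305 to 0.166 TP10k and its log2 difference from 1.995, just under the rule, to 1.39. That of Apob went from 2.00 to 1.91, that of Ttr from 4.39 to 4.28 and that of Rbp4 from 3.68 to 3.55, and Ttr and Rbp4 still passed. Afp, alpha-fetoprotein, was found in 3 iXEN cells and Bmp2 in 39, with means of 0.00745 and 0.0272 TP10k.

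**Figure D2:**
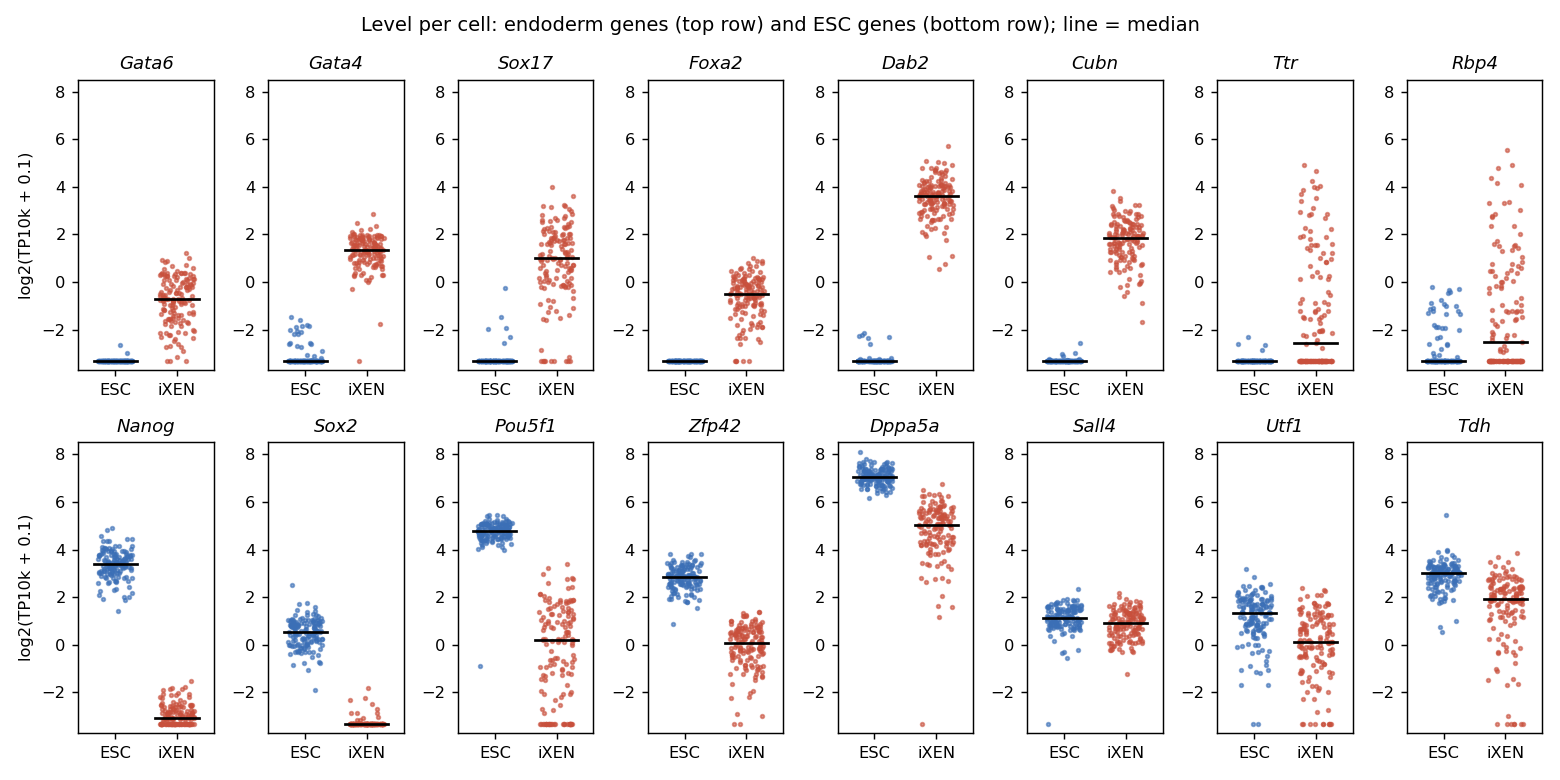
Level per cell as log2(TP10k + 0.1) for 8 endoderm genes (top) and 8 ESC genes (bottom), 1 point per cell, with the median as a line, in ESCs and iXEN cells. Dab2 and Cubn fill the whole iXEN culture, Ttr and Rbp4 part of it, and among the ESC genes Nanog and Sox2 lie near 0 in iXEN cells while Pou5f1 spreads from 0 to 10.3 TP10k and Sall4 overlaps the ESCs.

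Genes of the anterior visceral endoderm, the signalling centre that patterns the epiblast, gave a mixed count: of 7 compared among 9 listed, 1 was higher and 4 were lower. The WNT antagonist Dkk1 had means of 0.00253 TP10k in ESCs and 0.419 in iXEN cells (2.34). Otx2, a homeobox gene active in both epiblast and anterior visceral endoderm, had means of 0.492 TP10k in ESCs and 0.00277 in iXEN cells (-2.53), and the TGF-beta family genes Lefty1 and Nodal had log2 differences of -2.55 and -2.62. The WNT antagonist Sfrp1 differed by -2.77. Cer1 and Lhx1 had means of 0.00186 and 0.00515 TP10k in iXEN cells.

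Lysosomal proteases degrade what the visceral endoderm takes up. Of 11 genes listed for the lysosome and for protease inhibitors 8 passed the 4-fold rule as higher, none was lower, and the median log2 difference was 3.26. Those that did not pass were Ctsb, cathepsin B, at 1.77 and the protease inhibitors Serpine2 and Serpinb6a at 1.27 and 1.15. Ctsl, cathepsin L, ran from 0.196 to 11 TP10k over the ESCs with a median of 4.01, and from 17.1 to 257.4 over the iXEN cells with a median of 66.1, without overlap. Lgmn, legumain, had means of 0.747 TP10k in ESCs and 22.4 in iXEN cells (4.73), Ctsz of 1.17 TP10k in ESCs and 20.5 in iXEN cells (4.02) and Ctsh of 0.0116 TP10k in ESCs and 6.6 in iXEN cells (5.91). The lysosomal membrane protein Lamp1 ran from 0 to 8.26 TP10k over the ESCs with a median of 2.47, and from 9.16 to 44.4 over the iXEN cells with a median of 25.1. Over all genes compared, 15 (0.11%) were above every ESC in every iXEN cell, and 4 (0.0292%) below. The first set was Atp6v0b, Cd63, Col4a1, Col4a2, Ctsl, Ctsz, Cubn, Dab2, Ifi30, Lamp1, Lgmn, Lrp2, Npl, Serpinh1 and Sparc, and the second Esrrb, Fgf4, Nanog and Tdgf1. Of 11 genes for folding and secretion in the endoplasmic reticulum, 1 passed, the retrieval receptor Kdelr3 at 0.433 TP10k in ESCs and 6.72 in iXEN cells (3.68), and the chaperone Calr came close at 1.91.

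Of 11 cadherin, epithelial and mesenchymal genes 4 were higher, the keratins Krt8, Krt18 and Krt19 and Snai1, and 1 was lower, Vim, with a median log2 difference of 0.25. The keratin Krt8 had means of 0.0869 TP10k in ESCs and 5.99 in iXEN cells (5.03) and its partner Krt18 of 0.0572 TP10k in ESCs and 6.83 in iXEN cells (5.46), and Krt19 had a log2 difference of 2.23. E-cadherin (Cdh1) was alike in level, at 0.55 TP10k in ESCs and 0.671 in iXEN cells. The mesenchymal intermediate filament gene Vim was lower, at 2.19 TP10k in ESCs and 0.236 in iXEN cells (-2.77), while Snai1, a repressor of E-cadherin, was higher at 0.0204 TP10k in ESCs and 0.432 in iXEN cells (2.14). N-cadherin (Cdh2) was found in 41 ESCs and 1 iXEN cell at means of 0.0156 TP10k in ESCs and 7.48e-05 in iXEN cells. Outside the lists, the genes among the 15 highest by log2 difference and found in at least 50% of iXEN cells were the tight junction genes Cldn6 and Cldn7 at 5.52 and 5.20, Car4, a carbonic anhydrase, at 6.79, Srgn, the proteoglycan serglycin, at 6.05, and S100g, a calcium-binding protein, at 5.61.

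The 15 genes with the lowest log2 difference among those found in at least 50% of ESCs were led by Ifitm3, an interferon-inducible membrane protein, which ran from 0 to 46.8 TP10k over the ESCs with a median of 16, and from 0 to 1.04 over the iXEN cells with a median of 0 (-6.61). Nanog followed: it ran from 2.55 to 30.3 TP10k over the ESCs with a median of 10.6, and from 0 to 0.247 over the iXEN cells with a median of 0.0201, without overlap. Although 61.7% of iXEN cells held some Nanog, their mean of 0.0372 TP10k was 0.333% of the ESC mean. The Nodal co-receptor Tdgf1 and the Nodal antagonist Lefty2 had log2 differences of -5.71 and -4.81. Ifitm1, next to Ifitm3 in the genome, differed by -5.72 and Ifi27, another interferon-inducible gene, by -4.43. The others were the phospholipase Pla2g1b (-5.99), the IGF-binding protein Igfbp2 (-5.73), the autophagy receptor Calcoco2 (-5.09), the junction protein Jam2 (-4.82), osteopontin Spp1 (-4.73), the myosin light chain Mylpf (-4.46), uridine phosphorylase Upp1 (-4.46), the glutathione transferase Gsta4 (-4.42) and the tubulin Tuba3a (-4.32). Ifitm and tubulin genes have close paralogs, and how reads were divided between them affects their values. Spp1 was patchy rather than lost, at up to 14.7 TP10k in iXEN cells. Not all of the 15 were also 4-fold lower in VE-like than in Epi-like cells of the 3D aggregates. There Calcoco2, Tuba3a, Upp1 and Spp1 did not pass (-1.96, -1.55, -1.26 and -0.79) and Ifi27 was at 0 in both groups, while the others passed as lower.

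The levels of pluripotency genes differed by unlike factors. All 25 core and naive pluripotency genes in the table were found in at least 50% of ESCs, and 15 were found in at least 50% of iXEN cells. Over all genes found in at least 50% of ESCs, 86.7% were found in at least 50% of iXEN cells. The 15 include genes at a trace level, and 9 were found when a gene counted from 0.5 TP10k, a limit chosen after seeing the data. Dppa3 and Prdm14 had ESC means under this limit (0.341 and 0.455 TP10k), and the share over all genes is not given at it. The 9 are therefore set against neither the 25 nor the 86.7%. By level, the iXEN mean was at least 25% of the ESC mean for 10 genes, between 1% and 25% for 5 and below 1% for 10. The share of all genes in these bands is not given, so the split describes this list only. The range ran from 0.0122% for Fgf4 to 474.5% for Lin28a. By the 4-fold rule 6 of 13 core genes and 8 of 12 naive genes were lower, and the median log2 differences were -1.98 and -2.49.

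The genes below 1% were Fgf4, the epiblast ligand of the FGF receptors, at 1.37 TP10k in ESCs and 0.000167 in iXEN cells, Tdgf1, Dppa3 (0.341 TP10k in ESCs and 0.00045 in iXEN cells), Esrrb, an orphan nuclear receptor, Prdm14, Nanog, Sox2, Nr0b1, Klf2 and Gdf3. Sox2, the partner of Oct4, ran from 0.168 to 5.61 TP10k over the ESCs with a median of 1.37, and from 0 to 0.184 over the iXEN cells with a median of 0, ranges that overlap at their ends. Esrrb ran from 0.21 to 6.68 TP10k over the ESCs with a median of 1.08, and from 0 to 0.14 over the iXEN cells with a median of 0, without overlap. Klf2, a Krüppel-like factor of the naive state, kept 0.811% of its ESC mean, Nr0b1 0.711%, Prdm14 0.254%, Dppa3 0.132%, and the TGF-beta family ligand Gdf3 0.979%.

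Pou5f1 lay in between. It ran from 0.44 to 43.9 TP10k over the ESCs with a median of 27.5, and from 0 to 10.3 over the iXEN cells with a median of 1.04, so that 80.9% of iXEN cells (interval 73.4% to 87%) held it at a mean of 5.77% of that of ESCs, and 51.1% of iXEN cells held at least 1 TP10k. Tcl1, a co-activator of AKT, kept 6.04%, the transcription factor Tfcp2l1 10.3% and Zfp42 (Rex1) 13.9%. Zfp42 was found in nearly every cell, with 98.6% of iXEN cells above 0 and a median of 0.963 TP10k. Klf4 kept 24.9%.

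The genes that stayed on differed in kind. Sall4, a zinc finger factor also known from primitive endoderm, ran from 0 to 5.01 TP10k over the ESCs with a median of 2.1, and from 0.324 to 4.38 over the iXEN cells with a median of 1.81, ranges that overlap almost fully (log2 difference -0.23). Utf1, a chromatin protein of pluripotent cells, had means of 2.53 TP10k in ESCs and 1.35 in iXEN cells, Dppa4 of 1.39 TP10k in ESCs and 0.748 in iXEN cells and Dppa2 of 0.788 TP10k in ESCs and 0.29 in iXEN cells. Tdh, threonine dehydrogenase, the enzyme that feeds the one-carbon metabolism of mouse ESCs, had means of 8.03 TP10k in ESCs and 3.96 in iXEN cells. Dppa5a was the most abundant of the 25 in iXEN cells: it ran from 71.9 to 277.7 TP10k over the ESCs with a median of 132.9, and from 0 to 107.4 over the iXEN cells with a median of 32.6, a log2 difference of -1.98, at the edge of the 4-fold rule. With the geometric mean its log2 difference was -2.25, which passed the rule as lower. Dppa5a has several processed pseudogenes, and the division of reads between them is uncertain. The Krüppel-like factor Klf5 and the T-box factor Tbx3, both of the naive network, had log2 differences of 0.30 and -0.75, and Fbxo15 of -1.48. Lin28a, which binds let-7 precursors, was higher in iXEN cells, at 0.152 TP10k in ESCs and 0.719 in iXEN cells (1.70).

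**Figure D3:**
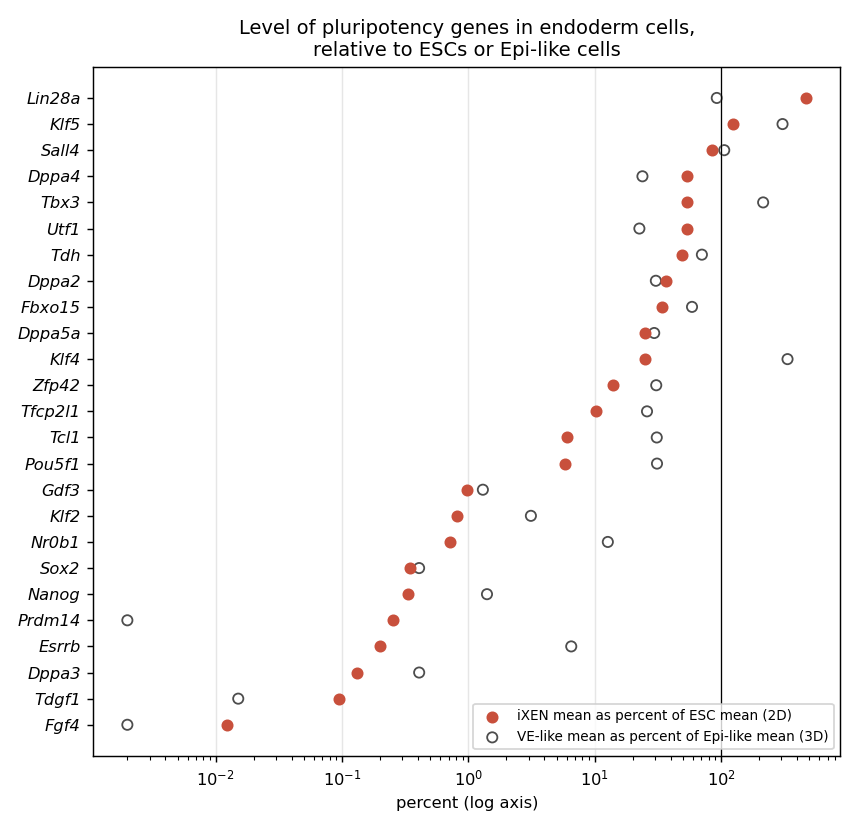
Mean level of 25 pluripotency genes in iXEN cells as a percent of the ESC mean (filled) and in 3D VE-like cells as a percent of the Epi-like mean (open), on a log axis with a line at equality. Prdm14 and Fgf4, listed at 0 in VE-like cells, are drawn at the left edge. The filled points run from 0.0122% (Fgf4) to 474.5% (Lin28a), with Pou5f1 at 5.77% in 2D against 31.1% in 3D.

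The iXEN cells were also examined one by one, to see how the remaining ESC transcripts were spread over the culture. The summed level of the 13 core pluripotency genes ran from 125.1 to 299.2 TP10k over ESCs (median 198.4) and from 1.78 to 120.1 over iXEN cells (median 41.7). Dppa5a made up most of this sum. None of the iXEN cells reached the lowest ESC, and without Dppa5a 5 of them did. The summed level of 35 endoderm genes (transcription factors without Gata6, receptors and basement membrane) ran from 8.37 to 28 over ESCs and from 34 to 478.7 over iXEN cells, again without overlap. The iXEN cell with the fewest genes had the lowest value of both sums. Without it the iXEN cells began at 12 and 100.6. The genes of these sums were chosen with results of these data known, so the separation is a description. Both sums are ranges of a level and do not define cell types.

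**Figure D4:**
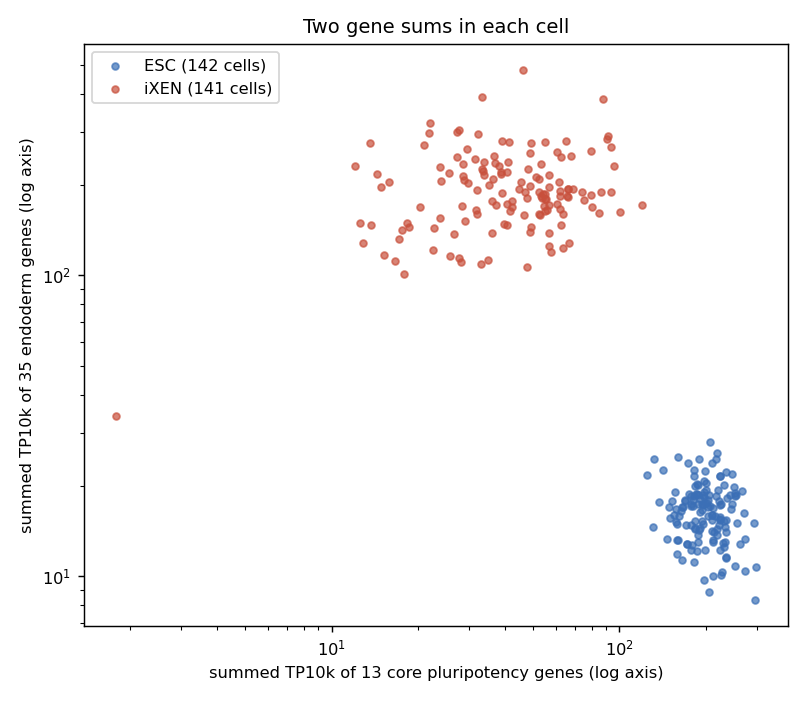
Summed TP10k of 13 core pluripotency genes (horizontal) and of 35 endoderm genes (vertical) in each cell, on log axes, 1 point per cell. The ESCs lie at the lower right and the iXEN cells at the upper left without overlap, and the single iXEN point at the lower left is the cell with the fewest genes, with sums of 1.78 and 34.

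Over the 140 iXEN cells with at least 4000 genes, ln(sum + 1) of both gene groups had a Pearson correlation of 0.142. Among single genes, Pou5f1 had a correlation of 0.591 with Dppa5a and of -0.348 with Tdh, and Gata6 one of 0.34 with Pou5f1. These cells share 1 culture and 1 plate, and TP10k values of a cell sum to a constant.

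The 3D aggregates hold cells that share none of the 2D libraries. Grouping them by k-means put 33.2% of the cells in a VE-like, 32.6% in an Epi-like and 34.2% in an ExE-like group, each with all of its markers highest in its own group. VE-like cells came from the iGATA6 line and Epi-like cells from Kermit ESCs, so this comparison carries the same difference of lines. Unlike the 2D ESCs, the Epi-like cells had received the same DOX and medium as the VE-like cells. Over 10653 genes compared in both settings, 2.1% were 4-fold or more higher in VE-like than in Epi-like cells and 1.48% lower. The genes higher in both settings made up 54.4% of those higher in iXEN cells and 74.6% of those higher in VE-like cells. In the lower direction 78 genes were shared, 56.5% of the 2D and 49.4% of the 3D genes. No gene passed 4-fold in opposite directions. The iXEN cells stood above VE-like cells in several secreted and epithelial genes, among them Spink1 (24.2 against 3.9 TP10k), Ttr (2.04 against 0.326), Rbp4 (2.03 against 0.154) and Krt18 (6.83 against 0.979), and below them in Srgn (15.7 against 29.6), Spp1 (0.813 against 7.12) and Pou5f1 (1.6 against 4.37). These genes were picked after their values were seen. The 3D cells held fewer genes above 0 (median 5219, against 8699 per iXEN cell) and came from other plates and another medium. Effects of these on the levels were not tested.

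None of the genes that were 4-fold or more higher in Epi-like than in VE-like cells was 4-fold or more higher in iXEN cells than in ESCs. Of these epiblast genes 8 (5.06%) were found in at least 50% of both ESCs and iXEN cells with a log2 difference within 1 of 0, against 62.2% of all genes compared in both settings. Their number was 14 with cells of at least 7000 genes, 24 and 0 with pseudocounts of 0.01 and 1 TP10k, and 5 with the geometric mean or with TPM as deposited. By level the 8 were Utf1, which had means of 7.82 TP10k in Epi-like and 1.76 in VE-like cells, Lncenc1, an ESC-enriched long noncoding RNA (2.15 TP10k in ESCs and 1.21 in iXEN cells), the lysosomal mannosidase Manba (0.554 TP10k in ESCs and 0.359 in iXEN cells), and Prpf40b, Pdk1, Kat2b, 1110008L16Rik and Tle4, whose ESC means ran from 0.23 (Tle4) to 0.508 TP10k (Prpf40b). The 3D rule for these genes used no 2D cell.

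Signalling genes gave a mixed picture. Of 9 genes induced by ERK signalling, 2 were higher, Dusp4 at 0.0114 TP10k in ESCs and 0.476 in iXEN cells (2.37) and Phlda1 at 0.00797 TP10k in ESCs and 0.347 in iXEN cells (2.05), and 1 was lower, the ETS factor Etv5 at 2.07 TP10k in ESCs and 0.436 in iXEN cells (-2.02), while Dusp6, Spry2 and Etv4 stayed within 1 of 0. The ESC medium held LIF and 2i, which includes a MEK inhibitor, and the XEN medium held neither. An effect of the media on the genes of this paragraph was not tested. Of 5 genes induced by LIF through STAT3, 2 were lower, Socs3 at 0.689 TP10k in ESCs and 0.0365 in iXEN cells (-2.53) and the kinase Pim1 at 0.619 TP10k in ESCs and 0.0657 in iXEN cells (-2.12), while Stat3 itself differed by -0.21. Of 7 WNT targets 5 were compared and none of these passed the rule, and the lowest was Notum, a WNT deacylase, at 0.266 TP10k in ESCs and 0.00184 in iXEN cells (-1.85).

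**Figure D5:**
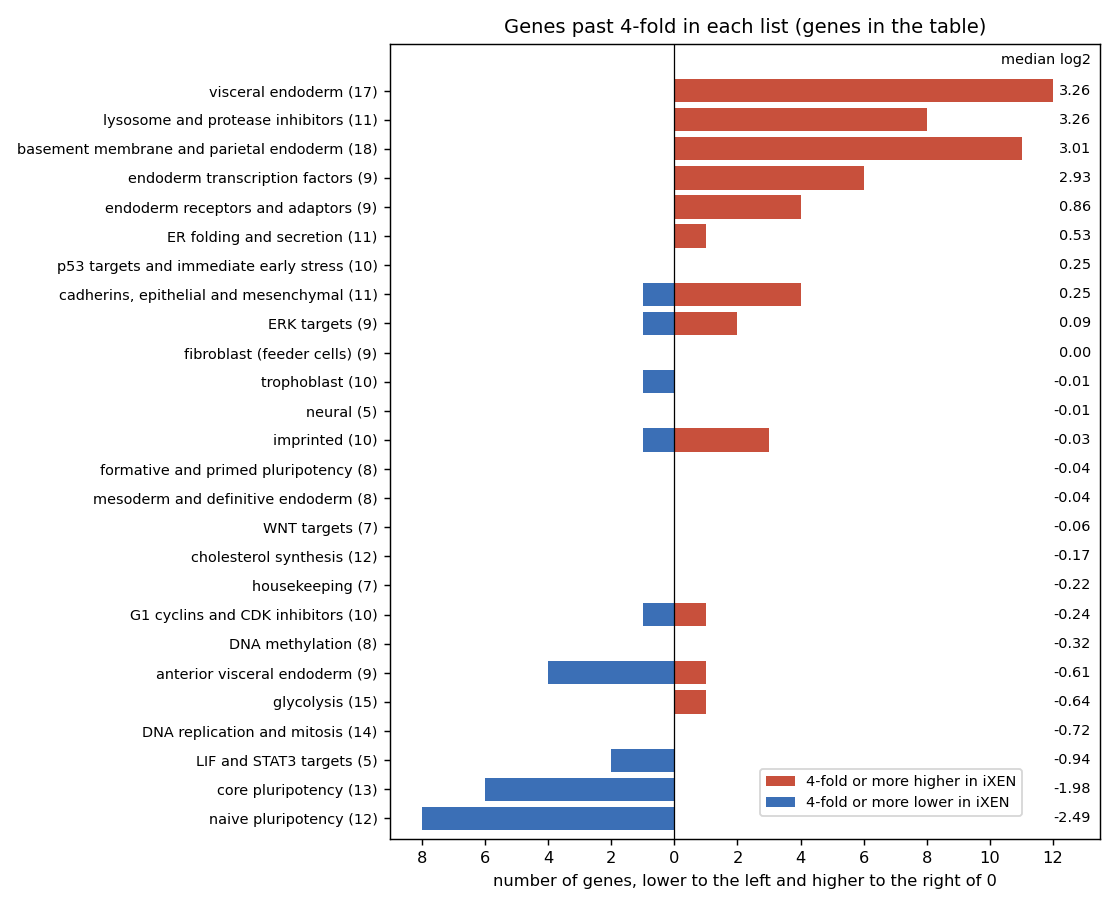
Number of genes of each list that were 4-fold or more higher (right) or lower (left) in iXEN cells than in ESCs, with the number of genes in the table in brackets and the median log2 difference of the list at the right. Visceral endoderm genes (12 of 17 higher, 11 without cells under 4000 genes) and naive pluripotency genes (8 of 12 lower) have the most genes higher and lower, and the housekeeping list has none.

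None of 8 DNA methylation genes passed 4-fold, with 4 log2 differences above 0 and 4 below. The de novo methyltransferase Dnmt3b had means of 0.476 TP10k in ESCs and 1.45 in iXEN cells (1.43) and its cofactor Dnmt3l of 1.3 TP10k in ESCs and 4.51 in iXEN cells (1.72), whereas Uhrf1, which guides maintenance methylation, had means of 3.21 TP10k in ESCs and 0.892 in iXEN cells (-1.74) and Tet1, a methylcytosine oxidase, of 2.15 TP10k in ESCs and 0.661 in iXEN cells (-1.56). Of 8 formative and primed genes, Dnmt3b among them, 6 were compared and none passed. Of these 6, 2 had a log2 difference above 0 and 4 below, and the median over the list was -0.04. Their summed level had a median of 1.32 TP10k in ESCs and 2.28 in iXEN cells, and means of 1.49 and 2.43. Dnmt3b alone had the means of 0.476 and 1.45 given above, so the sum does not describe the list as a group. Fgf5 had a mean of 0.014 TP10k in iXEN cells. Of 10 imprinted genes measured (9 compared), 3 were higher, namely the noncoding RNA H19 (0.0252 TP10k in ESCs and 1.43 in iXEN cells, 3.61), the growth factor Igf2 (0.0044 TP10k in ESCs and 0.462 in iXEN cells, 2.43) and Peg3 (0.0848 TP10k in ESCs and 1.31 in iXEN cells, 2.94), and 1 was lower, Plagl1 (0.521 TP10k in ESCs and 0.0117 in iXEN cells, -2.47). H19 was patchy, at up to 33.1 TP10k, and in the iTSC culture it reached a mean of 71.3.

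The D-type cyclins, which drive entry into the cell cycle, differed in direction. Ccnd1 ran from 0 to 3.69 TP10k over the ESCs with a median of 1.2, and from 0 to 1.14 over the iXEN cells with a median of 0 (-3.34). Ccnd2 ran from 0 to 2.41 TP10k over the ESCs with a median of 0, and from 0 to 5.26 over the iXEN cells with a median of 0.468 (2.59). Of 10 genes listed for the start of the cell cycle 9 were compared, and of these Ccnd1 and Ccnd2 passed 4-fold, while Ccnd3 and Ccne1 had log2 differences of -1.47 and -1.55. Of 14 genes for DNA replication and mitosis none passed. The replication helicase genes Mcm2 to Mcm7 ranged from -1.76 (Mcm6) to -0.93 (Mcm5), while the mitotic genes Cdk1, Ccna2 and Ccnb1 differed by -0.26, 0.25 and -0.08.

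No glycolysis or cholesterol synthesis gene was lower by the 4-fold rule. Of 15 glycolytic genes 11 had a log2 difference below 0 and the median was -0.64, with Gapdh at 72.8 TP10k in ESCs and 38.5 in iXEN cells and Pkm at 31.9 TP10k in ESCs and 14.1 in iXEN cells. The glucose transporter Slc2a3 passed as higher. It ran from 1.37 to 10.3 TP10k over the ESCs with a median of 3.83, and from 5.48 to 50.0 over the iXEN cells with a median of 18.1 (2.18). None of 12 cholesterol synthesis genes passed in either direction, and their median log2 difference was -0.17. Among 7 housekeeping genes none passed, and their log2 differences ran from -0.98 to 0.51. Of 10 p53 and early stress genes none passed, and the stress factor Atf3 came nearest with 0.0141 TP10k in ESCs and 0.258 in iXEN cells (1.65).

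Markers of other cell types that the cultures could hold were low. Of 9 fibroblast genes, which would mark feeder cells, 3 were found in enough cells to be compared and none of these differed by 4-fold. The summed level of the 9 genes had a median of 0.0105 TP10k in ESCs and 0.00568 in iXEN cells, with highest values of 0.373 and 0.809. The 8 mesoderm and definitive endoderm genes summed to at most 1.11 TP10k in any ESC and 0.417 in any iXEN cell. The 5 neural genes summed to at most 1.27 TP10k in any ESC and 0.173 in any iXEN cell. Of 10 trophoblast genes (9 compared) 1 was lower, Tfap2c (0.355 TP10k in ESCs and 0.00901 in iXEN cells, -2.06), a gene shared with naive ESCs, and Cdx2 and Elf5 had means of 0.0195 and 0.00418 TP10k in iXEN cells. The 10 trophoblast genes summed to at most 3.26 TP10k in any ESC and 1.85 in any iXEN cell. None of 4 Y-linked genes differed by 4-fold.

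The iTSC culture shares the ESC controls with this comparison, so its values are given side by side only. The means in ESCs, iXEN cells and iTSCs were 27.8, 1.6 and 1.93 TP10k for Pou5f1, 11.2, 0.0372 and 0.25 for Nanog, and 1.43, 0.00499 and 0.812 for Sox2. For Tdh they were 8.03, 3.96 and 0.165, for Sall4 2.2, 1.85 and 0.771, and for Dppa5a 137.5, 34.7 and 11.7. Esrrb had means of 1.17, 0.00235 and 0.844 and Zfp42 of 7.33, 1.02 and 1.95. Pou5f1 thus stood at similar means in both DOX-treated cultures, while Esrrb and Sox2 were higher in iTSCs and Tdh, Sall4 and Dppa5a higher in iXEN cells.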

How the data were processed

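Single cells were sorted into wells and sequenced by SMART-seq2. The authors demultiplexed reads with bcl2fastq 2.20, quantified transcripts with kallisto against the GRCm38 transcriptome, summed them per gene with tximport after removal of mitochondrial, ribosomal and pseudogene transcripts, and deposited TPM per gene and well. TPM holds no read depth, so no count model and no counting interval of a level was possible. Cells with at least 2500 genes above 0 TPM were kept (142 ESCs and 141 iXEN cells, beside 982 3D cells) and rescaled to 10000 per cell (TP10k). 39 wells of the series held missing values for every gene, among 71 with no gene above 0.

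Each culture was 1 sample, so means, ranges and shares over cells were compared by fixed rules of size, without tests: genes found in at least 10% of either culture, a pseudocount of 0.1 TP10k and a 4-fold difference, which 316 genes passed as higher and 149 as lower in iXEN cells. The 3D cells were grouped by k-means (3 groups) on 10 principal components of the 2000 most variable genes and named from the marker genes. The rule for named genes took the members of the gene lists described in the report, the 15 largest differences in each direction, and the 10 most abundant epiblast genes kept (8 were found). 1 gene of the lists is counted but not reported here. Members and lists were chosen with earlier results of these data known. Doublets were not called, since wells were filled by sorting. The scripts ran on scipy 1.17.1, scikit-learn 1.9.0, pandas 2.3.3, numpy 2.4.6 and matplotlib 3.10.9 under Python 3.11.15, and the comparison was tested on simulated data. Alternatives were the minimum of genes per cell, the value that counts as expressed, the pseudocount, the scaling, the geometric mean, the minimum share of cells, the fold, the share limits and the number of components.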

Additional observations from a re-analysis of the deposited data

How the results depend on the processing

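No paired analysis was possible because each side was 1 culture and no test was run. Shares here are percent of the genes compared. As reported, 2.31% were higher, 1.09% lower, 0.439% switched on and 0.336% switched off, with 15 pluripotency genes found and 8 epiblast genes kept. With a pseudocount of 0.01 TP10k they were 6.02% higher, 4.61% lower, 0.775% on and 1.12% off, with 24 genes kept, and with 1 TP10k 0.322%, 0.117%, 0.0512% and 0.0219%, with 0 kept. With a 2-fold rule they were 8.21%, 5.96%, 0.709% and 0.826%, with 220 kept, since the fold also sets the epiblast list. With TPM as deposited 0.724% were lower, 0.19% off and 5 genes kept, and with the geometric mean 5 were kept. Limits of 5% and 75% of cells gave 0.205% on and 0.132% off. With cells of at least 7000 genes 14 epiblast genes were kept. Counting a gene as found from 0.5 TP10k, an alternative chosen after seeing the data, gave 0.994% on and 9 pluripotency genes found. Among 77 named genes, none that passed 4-fold changed sign under the 7 alternatives run for them. With a pseudocount of 1, 22 of them no longer passed, with TPM as deposited Fgfr2, Prdm14 and Dppa3 did not, and with the geometric mean Dppa3 did not. With a pseudocount of 0.01, Hnf4a, Foxq1, Fgfr1, Fgfr4 and Lin28a passed, and with the geometric mean Dppa5a passed as lower (-2.25). Leaving out a replicate was not possible. The read depth behind each value is unknown, so a gene at 0 in a cell is not shown to be absent.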

Other observations

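The switched genes named here lie outside the lists and were chosen after their values were seen, so they stand for no group. Hkdc1, a hexokinase-like enzyme, had means of 0.00331 TP10k in ESCs and 0.649 in iXEN cells (log2 difference 2.86), Tmprss2, a membrane serine protease, of 0.00269 TP10k in ESCs and 0.601 in iXEN cells (2.77), and Slc7a9, an amino acid transporter, of 0.00755 TP10k in ESCs and 0.646 in iXEN cells (2.79). Cyp26a1, the enzyme that degrades retinoic acid, was found in 59.6% of iXEN cells and 2.11% of ESCs (2.92), while Crabp1, a retinoic acid binding protein, was found in 1.42% and 76.8% (-2.38). Bmp6, a BMP ligand, had means of 0.00093 TP10k in ESCs and 0.39 in iXEN cells (2.28).

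Among genes switched off, Oas1a, an oligoadenylate synthetase, had means of 0.802 TP10k in ESCs and 0.00741 in iXEN cells (-3.07) and its neighbour Oas1g of 0.494 TP10k in ESCs and 0.0023 in iXEN cells (-2.54). The Oas1 genes are close paralogs, and the division of reads between them is uncertain. Eras, a RAS-like gene of ESCs, had means of 0.381 TP10k in ESCs and 0.00153 in iXEN cells (-2.25) and Sox15, a SOX factor expressed in ESCs, of 0.443 TP10k in ESCs and 0.0164 in iXEN cells (-2.22). Between VE-like and Epi-like cells in 3D, Eras and Sox15 also passed 4-fold as lower (-2.02 and -3.01), while Oas1a and Oas1g did not (-0.30 and -0.14). No cause was tested for any of the 2D differences named here, which came from 1 culture a side.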
